A study of Homo sapiens with 15 samples.

Results

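The interleukin-1 family and inflammasome genes were taken by symbol from both expression tables. Of the 8 names, 7 were listed: the antagonist IL1RN, the cytokines IL1B and IL18, the sensors NLRP3 and NLRC4, the adaptor PYCARD and the protease CASP1, among 19620 entries per table. The expression of the receptor subunit IL1RAP was not analysed here. The values come from RNA of the human cell line OCI-AML5, established from acute myeloid leukaemia and sequenced in 15 libraries, 3 for each of 5 groups. All cells received GM-CSF at 10 ng/mL in medium with 20% serum. In the drug experiment the groups were untreated control cells, cells given OTX015 at 1000 nM for 4 h, and cells given ARV-825 at 1000 nM for 4 h, with no vehicle named for the control. OTX015 occupies the bromodomains of BET proteins, which bind acetylated chromatin, and ARV-825 joins OTX015 through a linker to a ligand of the ubiquitin ligase subunit cereblon. The shRNA experiment compared a hairpin with no target (shNT) with RUNX1 shRNA, both for 72 h. The series concerns leukaemia with mutant RUNX1, and 1 cell line stands for it here.

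Interleukin-1 signalling starts when IL-1β binds the receptor IL1R1, which then recruits IL1RAP and the adaptor MYD88. The receptor antagonist encoded by IL1RN occupies IL1R1 without starting a signal. IL-1β and interleukin-18 are made as inactive precursors. Caspase-1 cleaves them after a sensor such as NLRP3 or NLRC4 has assembled an inflammasome, in which PYCARD (ASC) can link sensor to protease. Monocytes and macrophages are the best known users of this pathway, and a transcript level says nothing of precursor cleavage.

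RefSeq gives the sequences upstream of the starts of 6 of the 8 genes (GRCh38.p14, a later build than the hg19 named for the tables, so no table value is tied to these coordinates). The 250 bases before the start are shown for the antagonist and agonist pair IL1RN and IL1B, for the sensors NLRC4 and NLRP3 and for the adaptor PYCARD, whose levels in the treated cells are compared below. IL1RN has 3 listed starts, all inside the gene's span in GENCODE release 29 (chr2:113107214-113134016, plus strand), and the outer ones are shown. Capitals mark matches on either strand to a RUNX motif (TGNGGT), a PU.1 motif (GAGGAA) or a C/EBP motif (TTGCNNAA), and no marked match overlaps another.
IL1RN, most upstream start, chr2:113117721-113117970 (plus strand): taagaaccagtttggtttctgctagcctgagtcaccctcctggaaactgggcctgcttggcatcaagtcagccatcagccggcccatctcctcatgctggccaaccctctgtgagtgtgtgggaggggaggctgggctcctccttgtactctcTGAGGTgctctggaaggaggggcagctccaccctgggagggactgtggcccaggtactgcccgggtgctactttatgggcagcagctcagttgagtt
IL1RN, most downstream start, chr2:113127348-113127597 (plus strand): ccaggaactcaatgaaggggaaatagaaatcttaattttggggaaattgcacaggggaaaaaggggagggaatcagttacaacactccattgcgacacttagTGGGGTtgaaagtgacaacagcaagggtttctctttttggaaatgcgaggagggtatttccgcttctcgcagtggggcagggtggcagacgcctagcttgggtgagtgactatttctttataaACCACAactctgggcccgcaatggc
IL1B, chr2:112836780-112837029 (minus strand): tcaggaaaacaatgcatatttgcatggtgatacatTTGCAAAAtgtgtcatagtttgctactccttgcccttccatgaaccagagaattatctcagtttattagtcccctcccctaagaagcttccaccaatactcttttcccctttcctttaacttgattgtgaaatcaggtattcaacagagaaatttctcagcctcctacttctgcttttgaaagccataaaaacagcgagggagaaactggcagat
NLRC4, most upstream start, chr2:32265744-32265993 (minus strand): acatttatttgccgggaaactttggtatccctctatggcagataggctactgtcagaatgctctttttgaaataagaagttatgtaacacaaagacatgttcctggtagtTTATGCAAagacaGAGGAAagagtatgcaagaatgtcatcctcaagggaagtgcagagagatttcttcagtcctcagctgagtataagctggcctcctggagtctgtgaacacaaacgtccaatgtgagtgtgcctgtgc
PYCARD, chr16:31202761-31203010 (minus strand): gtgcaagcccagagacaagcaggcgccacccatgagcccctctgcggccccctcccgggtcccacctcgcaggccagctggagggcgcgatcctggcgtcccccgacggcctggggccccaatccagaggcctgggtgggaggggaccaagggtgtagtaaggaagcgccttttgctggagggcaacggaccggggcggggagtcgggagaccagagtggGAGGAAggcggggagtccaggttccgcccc
NLRP3, chr1:247415923-247416172 (plus strand): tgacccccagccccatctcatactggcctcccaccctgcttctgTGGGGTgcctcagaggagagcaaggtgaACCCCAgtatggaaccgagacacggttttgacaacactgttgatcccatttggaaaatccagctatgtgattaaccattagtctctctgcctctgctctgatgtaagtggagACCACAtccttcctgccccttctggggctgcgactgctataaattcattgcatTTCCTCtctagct

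Among all 35116 such windows, several of which can belong to 1 gene, 37.7% hold the RUNX letters, 23.6% the PU.1 letters and 9.05% the C/EBP letters. The upstream window of IL1RN holds 1 RUNX match and the downstream window 2, one of them 25 to 20 bases before the start on the opposite strand. The IL1B window holds 1 C/EBP match, the PYCARD window 1 PU.1 match, and the NLRC4 window 1 PU.1 and 1 C/EBP match. NLRP3 has the most matches of these windows, 3 to RUNX and 1 to PU.1. Among windows not shown, that of IL1RAP and the most downstream one of NLRC4 hold no match. The middle window of NLRC4 holds 1 PU.1 match and the middle one of IL1RN 1 RUNX match. Both windows overlap windows that are shown, and these matches are sites already counted there. All of these are matches of letters, not binding measured in these cells.

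Levels are in FPKM, fragments scaled to transcript length and library size, a unit in which different genes can be set side by side. The tables name no unit and FPKM is inferred, the number of reads per library is unknown, and the drug and shRNA tables were normalized separately. The sum of FPKM ran from 554570 to 656995 per library. Myeloid identity markers were present, with 10 of 10 at 1 FPKM or more in control and 9 of 10 in shNT, led by lysozyme (LYZ). Their summed level was 929 to 988 FPKM in control, 622 to 666 with ARV-825 and 536 to 544 with OTX015. It was 860 to 873 FPKM in shNT and 724 to 737 with RUNX1 shRNA, none of the 10 was at 0 throughout any group, and the part of this in the results below was not tested. In bulk RNA, fewer cells of a kind and less RNA per cell cannot be told apart. Of the markers of other cell types, 0 of 5 T and NK cell, 1 of 5 B cell, 0 of 5 erythroid, 1 of 5 megakaryocyte (2 with ARV-825) and 0 of 6 epithelial and fibroblast genes reached a group mean of 1 FPKM. In ARV-825 replicate 1, 6 genes of the mitochondrial genome are at 0. Calls given below that change without this library are named for the members and for pathway genes named by size of change. Calls of CARD8 and counts by role were not rechecked without it. RUNX1, the shRNA target, stood at 69.8, 72.2 and 69.8 FPKM in shNT and at 37.2, 42.9 and 36.0 FPKM with RUNX1 shRNA, a change of -0.85 ± 0.059 on the log2 scale (SE, limma, adjusted p = 3.71e-05). The titles of those libraries name Runx3, whose gene was at 27.02 ± 1.80 FPKM in shNT and 28.4 ± 0.771 FPKM with RUNX1 shRNA (mean ± SD, n = 3; limma, adjusted p = 0.341).

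**Figure D1:**
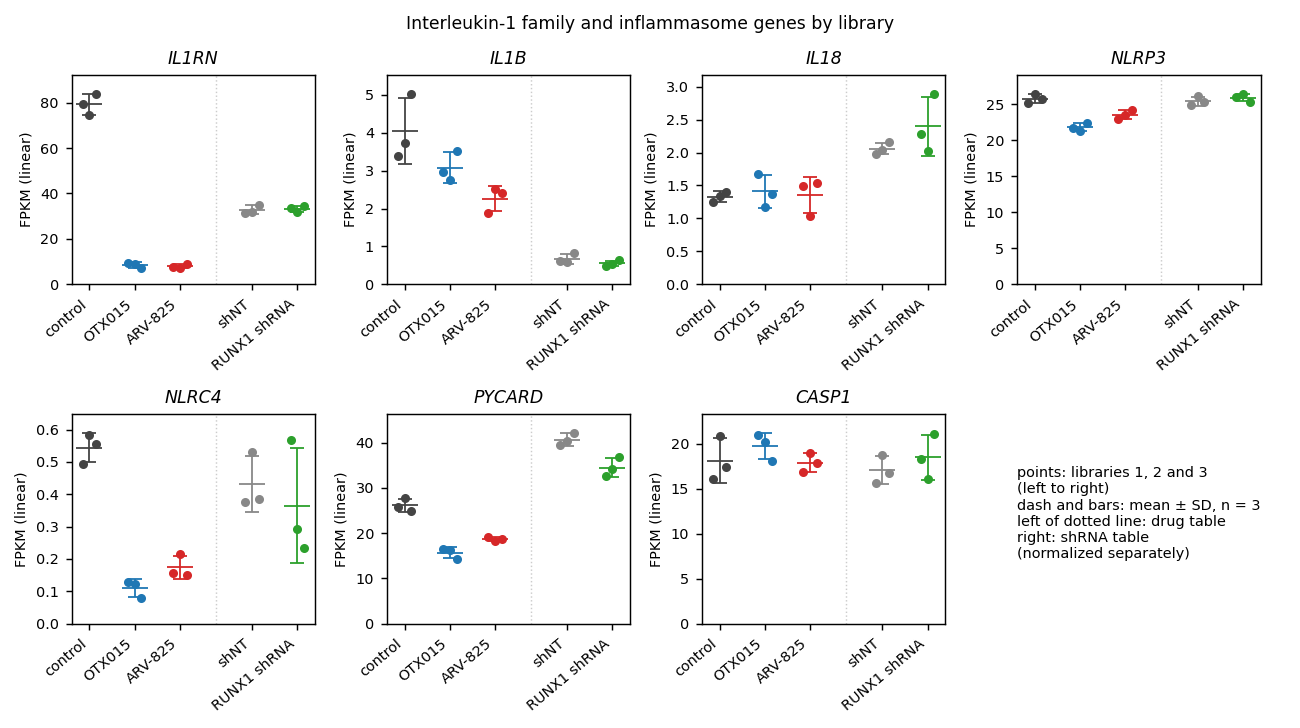
FPKM (linear axis from 0) of the 7 listed genes in every library; points are libraries, the dash and bars are mean ± SD with n = 3, and the shRNA groups right of the dotted line were normalized separately. IL1RN lies between 74.5 and 83.9 FPKM in control and at 9.43 FPKM or lower in every drug-treated library, while all NLRP3 values lie between 21.4 and 26.5 FPKM.

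IL1RN, which encodes the natural brake on interleukin-1, changed most. Its level was 79.3, 74.5 and 83.9 FPKM in control, 7.77, 7.26 and 9.02 FPKM with ARV-825, and 9.43, 9.16 and 7.17 FPKM with OTX015. Every treated library lay far below every control library, and the libraries of the compounds overlapped each other. The mean fell from 79.2 ± 4.71 to 8.02 ± 0.907 FPKM with ARV-825, 9.88-fold lower, and to 8.59 ± 1.23 FPKM with OTX015, 9.22-fold lower (SD, n = 3).

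On the scale used for testing, log2(FPKM + 1), IL1RN changed by -3.16 ± 0.1 with ARV-825 (SE, limma, adjusted p = 1.46e-09) and by -3.07 ± 0.1 with OTX015 (limma, adjusted p = 2.61e-09). Ordered from the largest fall, it took rank 17 with ARV-825 and rank 5 with OTX015 among 10819 tested genes. In control, 95.5% of listed genes had a lower mean level than IL1RN, against 65.0% with ARV-825 and 65.6% with OTX015. Both treatments share the control libraries, so these contrasts are not independent of each other.

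RUNX1 shRNA left no detectable difference in IL1RN. It was at 31.6, 31.9 and 35.1 FPKM in shNT and at 33.8, 31.7 and 34.4 FPKM with RUNX1 shRNA, and the groups overlapped. The log2 change was 0.02, with a 95% interval from -0.09 to 0.13 (limma, adjusted p = 0.793). The control cells of the shRNA experiment list a lower IL1RN level (32.8 ± 1.96 FPKM) than the untreated cells of the drug experiment, a difference across tables that no test covers.

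The genes with log2 changes most like those of IL1RN across ARV-825, OTX015 and RUNX1 shRNA were TIFAB, an inhibitor of TRAF6 signalling, LGALS12, a galectin, and CCL2, a monocyte chemokine. Their Euclidean distances to IL1RN were 0.311, 0.357 and 0.5 over 3 log2 changes, the smallest among 10573 genes tested in both tables. TIFAB changed by -2.88, -3.19 and 0.10 in that order, LGALS12 by -3.24, -3.36 and 0.22, and CCL2 by -3.20, -2.58 and 0.10.

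IL1B, the agonist that IL1RN opposes, was far less abundant. It was at 3.39, 3.74 and 5.03 FPKM in control, 1.88, 2.51 and 2.40 FPKM with ARV-825, and 2.97, 2.75 and 3.53 FPKM with OTX015. All ARV-825 libraries lay below all control and all OTX015 libraries, while 1 OTX015 library exceeded the lowest control library. With ARV-825 the mean was 1.79-fold lower than in control, and the log2 change was -0.62 ± 0.129 (SE, limma, adjusted p = 0.00122).

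With OTX015, IL1B did not pass the threshold of adjusted p = 0.05: its log2 change was -0.30 (95% interval -0.58 to -0.01, limma, adjusted p = 0.0604). It passed without OTX015 replicate 3 (-0.38, limma, adjusted p = 0.0389) and without control replicate 1 (-0.39, limma, adjusted p = 0.0287). In the shRNA experiment IL1B was below 1 FPKM in every library, at 0.62, 0.579 and 0.815 FPKM in shNT and 0.489, 0.532 and 0.638 FPKM with RUNX1 shRNA. The groups overlapped, and the gene was under the minimum for testing there (mean of at least 1 FPKM).

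Because IL1RN fell further than IL1B, the ratio of antagonist to agonist transcript narrowed with both compounds. In control the FPKM of IL1RN was 23.4, 19.9 and 16.7 times that of IL1B. It was 4.13, 2.89 and 3.76 times with ARV-825 and 3.18, 3.33 and 2.03 times with OTX015. No treated library came near the control range, and the compounds overlapped. In the shRNA table the ratio was 49.6 ± 6.07 in shNT and 60.9 ± 7.67 with RUNX1 shRNA (SD, n = 3), with overlapping libraries. The ratio is given as a description without a test.

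**Figure D2:**
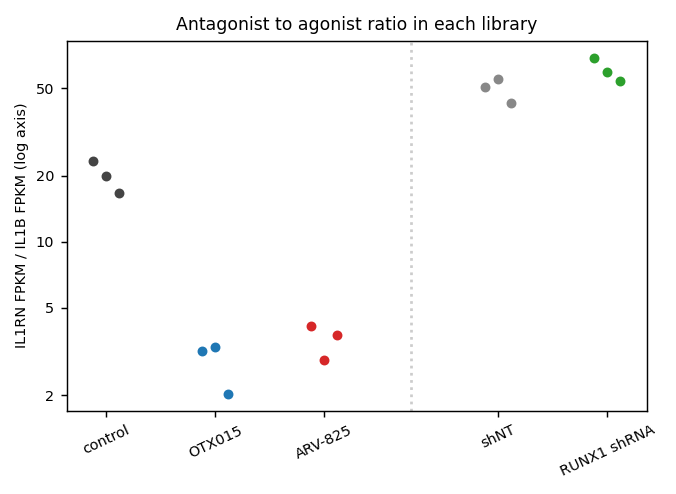
Ratio of IL1RN to IL1B FPKM in each library on a log axis, with the drug groups left and the separately normalized shRNA groups right of the dotted line. Control libraries lie between 16.7 and 23.4, and all libraries given either compound lie between 2.03 and 4.13.

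IL18, the other caspase-1 substrate among the members, was listed just above the minimum for testing in the drug table. Its level was 1.25, 1.34 and 1.41 FPKM in control, 1.49, 1.04 and 1.54 FPKM with ARV-825, and 1.68, 1.18 and 1.37 FPKM with OTX015, and all 3 groups overlapped. The log2 changes were 0.01 with ARV-825 (95% interval -0.23 to 0.25, limma, adjusted p = 0.942) and 0.04 with OTX015 (-0.20 to 0.28, adjusted p = 0.737). With RUNX1 shRNA it was at 2.40 ± 0.448 FPKM against 2.06 ± 0.0875 FPKM in shNT (SD, n = 3; log2 change 0.14, 95% interval -0.09 to 0.38, limma, adjusted p = 0.328). In GENCODE release 29 another coding gene overlaps IL18, and reads of the 2 could be shared.

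Of the sensors, NLRP3, which responds to many signs of cell damage, was abundant and moved little. It was at 25.2, 26.5 and 25.8 FPKM in control, 23.0, 23.5 and 24.3 FPKM with ARV-825, and 21.7, 21.4 and 22.4 FPKM with OTX015. The 3 groups did not overlap, with control highest and OTX015 lowest. The fall with OTX015 was -0.23 ± 0.044 on the log2 scale (SE, limma, adjusted p = 0.00071), to 84.6% of the control mean. With ARV-825 it was -0.12 ± 0.044 (limma, adjusted p = 0.023), to 91.4% of the control mean.

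The NLRP3 call for ARV-825 was lost when either ARV-825 replicate 1 (limma, adjusted p = 0.0879), ARV-825 replicate 2 (0.0508), control replicate 2 (0.0837) or control replicate 3 (0.0564) was left out. Under RUNX1 shRNA NLRP3 was at 26.1, 26.5 and 25.4 FPKM against 24.9, 26.2 and 25.3 FPKM in shNT, and the groups overlapped. The log2 change was 0.03 (95% interval -0.06 to 0.11, limma, adjusted p = 0.612).

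NLRC4, the sensor that works with NAIP proteins on bacterial components, was listed below 1 FPKM in every library. It was at 0.495, 0.583 and 0.555 FPKM in control, 0.158, 0.214 and 0.15 FPKM with ARV-825, and 0.13, 0.123 and 0.0781 FPKM with OTX015. The groups did not overlap, and the means were 3.13-fold and 4.93-fold lower than control. At this level few reads can stand behind a value, and the gene was under the minimum for testing. Without that filter the log2 changes were -0.40 (limma, adjusted p = 1.66e-05) and -0.48 (adjusted p = 9.11e-06), compressed by the added 1 FPKM. With RUNX1 shRNA it spread from 0.235 to 0.568 FPKM, around the 0.377 to 0.531 FPKM of shNT.

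PYCARD, an adaptor that can serve both sensors, was called in all 4 comparisons, the only one of the 5 members tested in every comparison. The drug comparisons share libraries, and the share of all genes called in all 4 was not computed. Of all tested genes, 38.4% were called lower with ARV-825, 33.5% with OTX015 and 13.8% with RUNX1 shRNA. Between the compounds, 24.7% were called higher with ARV-825. PYCARD was at 25.8, 27.7 and 24.8 FPKM in control, 19.1, 18.4 and 18.8 FPKM with ARV-825, and 16.5, 16.3 and 14.3 FPKM with OTX015. The groups did not overlap, with OTX015 lowest. The fall was -0.46 ± 0.063 on the log2 scale with ARV-825 (SE, limma, adjusted p = 5.41e-05), to 71.7% of the control mean, and -0.70 ± 0.063 with OTX015 (limma, adjusted p = 2.68e-06), to 60.0%.

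In the shRNA experiment PYCARD was at 39.4, 40.4 and 42.1 FPKM in shNT and at 32.6, 34.1 and 36.8 FPKM with RUNX1 shRNA. All knockdown libraries lay below all shNT libraries. The fall was -0.23 ± 0.048 on the log2 scale, to 84.8% of the shNT mean (limma, adjusted p = 0.009). An antisense gene, PYCARD-AS1, overlaps PYCARD in GENCODE release 29, and since strand is not stated its reads cannot be told apart from those of PYCARD. The genes nearest to PYCARD in the 3 log2 changes against the controls were NUDCD2, VAMP8, a vesicle fusion protein, and ATAD3A, a mitochondrial ATPase, at distances of 0.0315, 0.0815 and 0.0856.

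CASP1, the protease that matures IL-1β and interleukin-18, overlapped between groups in every comparison. It was at 16.1, 20.9 and 17.4 FPKM in control, 16.8, 19.0 and 17.9 FPKM with ARV-825, and 21.0, 20.2 and 18.2 FPKM with OTX015. The log2 changes were -0.01 with ARV-825 (95% interval -0.21 to 0.19, limma, adjusted p = 0.905) and 0.12 with OTX015 (-0.08 to 0.32, adjusted p = 0.246). Control replicate 2 was the highest of its group, and without it the OTX015 change was 0.22 (limma, adjusted p = 0.0285). With RUNX1 shRNA CASP1 was at 18.5 ± 2.51 FPKM against 17.1 ± 1.55 FPKM in shNT (SD, n = 3; log2 change 0.11, 95% interval -0.11 to 0.33, limma, adjusted p = 0.436). The neighbouring CARD16 is a close copy of the start of CASP1, so reads may be split between them.

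Across the members, 4 of 6 tested were called lower with ARV-825, IL1RN, IL1B, PYCARD and NLRP3, and 0 were called higher. Of all 10819 tested genes, 38.4% were called lower and 35.8% higher in that comparison. With OTX015, 3 of 6 were called lower, IL1RN, PYCARD and NLRP3, and 0 higher, against 33.5% lower and 36.1% higher of all genes. The median log2 change of the 6 tested members was -0.29 with ARV-825 and -0.26 with OTX015, and that of all tested genes -0.01 and 0.03. With RUNX1 shRNA, 1 of 5 tested members was called lower and 0 higher, against 13.8% and 13.5% of 10925 genes. At an unadjusted p under 0.05, limma also gave 1 of the 5.

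**Figure D3:**
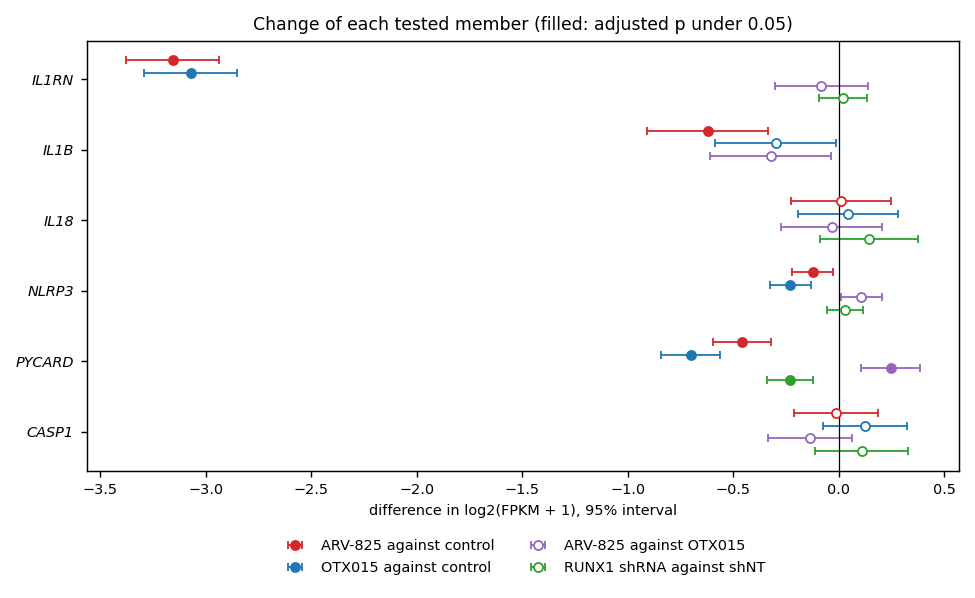
Difference in log2(FPKM + 1) of the 6 members tested in at least 1 comparison (points) with 95% intervals of limma (bars), filled where adjusted p was under 0.05. IL1RN lies near -3 for both compounds and near 0 between them and for RUNX1 shRNA, and PYCARD is filled in all 4 comparisons.

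ARV-825 and OTX015 were compared directly as 1 pair at the same dose and time. ARV-825 carries the BET ligand of OTX015 plus a linker and a cereblon ligand. IL1RN differed between them by -0.08 on the log2 scale, ARV-825 minus OTX015, with a 95% interval from -0.31 to 0.14 (limma, adjusted p = 0.488). PYCARD was higher with ARV-825 by 0.24 ± 0.063 (SE, limma, adjusted p = 0.00649), at 18.7 ± 0.37 against 15.7 ± 1.22 FPKM (SD, n = 3).

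IL1B was lower with ARV-825 than with OTX015 by 0.32 on the log2 scale (95% interval -0.61 to -0.04), just outside the threshold (limma, adjusted p = 0.0522). It passed in 6 of 15 other settings (limma, adjusted p = 0.0264 to 0.172 over them), among them without ARV-825 replicate 2, without control replicate 1 and without control replicate 3. NLRP3 differed by 0.11 (0.01 to 0.20, adjusted p = 0.0578), IL18 by -0.03 (-0.27 to 0.20, adjusted p = 0.807) and CASP1 by -0.13 (-0.33 to 0.06, adjusted p = 0.222). In all, 1 of 6 tested members was called higher and 0 lower, against 24.7% and 33.4% of all tested genes. These shares depend on the scaling. Of all called genes, 42.5% were higher with ARV-825, and 49.6% were after median-ratio rescaling of the libraries.

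The other genes of the pathway were taken from a list of 55 names, of which 54 were in both tables (GSDME under its older symbol DFNA5). Of these, 27 reached a mean of 1 FPKM over the drug libraries and were tested, and 8 were listed at 0 in all 9 of those libraries. The signalling receptor IL1R1 did not exceed 0.24 FPKM in any of the 15 libraries, and IL1A, the other interleukin-1 agonist, did not exceed 0.0325 FPKM. Of the 27, 14 were called lower and 7 higher with ARV-825 (median log2 change -0.31), and 13 lower and 9 higher with OTX015 (median -0.18). Over all tested genes the shares were 38.4% lower and 35.8% higher with ARV-825 (median -0.01), and 33.5% lower and 36.1% higher with OTX015 (median 0.03).

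Among receptors, IL18RAP, a subunit of the interleukin-18 receptor, fell furthest of the named list. It was at 13.7, 11.4 and 13.98 FPKM in control, 1.29, 1.05 and 2.04 FPKM with ARV-825, and 0.89, 0.655 and 0.642 FPKM with OTX015. The groups did not overlap. The log2 changes were -2.53 ± 0.14 (SE, limma, adjusted p = 5.09e-08) and -3.02 ± 0.14 (limma, adjusted p = 2.32e-08). With RUNX1 shRNA it rose, from 20.1 ± 0.765 to 31.2 ± 0.373 FPKM (SD, n = 3; log2 change 0.61 ± 0.039, limma, adjusted p = 2.67e-05). The partner subunit IL18R1 was below the minimum in the drug table, at 0.848 ± 0.112 FPKM in control, 0.291 ± 0.106 with ARV-825 and 0.2 ± 0.0294 with OTX015. The decoy protein gene IL18BP, which captures interleukin-18, rose with ARV-825 from 0.848 ± 0.0739 to 2.45 ± 0.612 FPKM (log2 change 0.89, limma, adjusted p = 4.9e-05) and was at 1.21 ± 0.15 FPKM with OTX015 (limma, adjusted p = 0.0756), where it passed with a pseudocount of 0.1 FPKM, in the fit of the 2 groups only, without ARV-825 replicate 1 and without ARV-825 replicate 2.

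Of 10 tested receptor signalling genes, 4 were called lower and 4 higher with ARV-825, and 4 lower and 6 higher with OTX015. The ARV-825 counts are near the shares over all genes (38.4% lower, 35.8% higher), and those for OTX015 stand beside 33.5% lower and 36.1% higher. The adaptor MYD88 fell from 12.4 ± 0.374 FPKM in control to 5.35 ± 0.28 with ARV-825 (log2 change -1.08) and 7.81 ± 0.531 with OTX015 (-0.61). IRAK3, an inhibitory kinase homologue, fell from 23.7 ± 0.837 to 8.89 ± 0.707 (-1.32) and 11.98 ± 1.01 FPKM (-0.93), and the kinase IRAK1 from 45.6 ± 0.402 to 29.5 ± 1.64 (-0.61) and 22.0 ± 0.809 FPKM (-1.02). TAB1, a partner of the kinase TAK1, fell by 0.77 with ARV-825 and by 0.24 with OTX015 on the log2 scale. TOLLIP, an inhibitor of the receptor complex, rose by 0.63 and 0.68. TAB2, another partner of TAK1, rose by 0.37 with ARV-825 and by 0.61 with OTX015. With OTX015 the ubiquitin ligase gene TRAF6 rose by 0.67. TRAF6 was not called with ARV-825, but was with no mean-variance trend and without ARV-825 replicate 1. Adjusted p of these called changes was at most 0.00212 in limma.

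Of 3 tested sensors besides NLRP3, 2 were called lower and 1 higher with each compound, beside the all-gene shares of 38.4% lower and 35.8% higher for ARV-825 and 33.5% and 36.1% for OTX015. The one called higher was CARD8, at 32.5 ± 1.19 FPKM in control, 36.5 ± 1.98 with ARV-825 (log2 change 0.16, limma, adjusted p = 0.0144) and 36.1 ± 1.22 with OTX015 (0.15, adjusted p = 0.0247). NAIP, which recognises bacterial flagellin and secretion needles for NLRC4, was at 36.1, 29.4 and 29.5 FPKM in control, 12.9, 15.3 and 12.5 FPKM with ARV-825, and 6.86, 6.52 and 7.64 FPKM with OTX015. The log2 changes were -1.16 and -2.02 (SE 0.097, limma, adjusted p = 1.12e-06 and 2.82e-08), and the compounds differed by 0.86 (adjusted p = 3.87e-05). NAIP has near-identical partial copies in the genome, and its value is uncertain for that reason. NLRP12, a sensor of myeloid cells, had the opposite order, with 4.77 ± 0.292 FPKM in control, 1.34 ± 0.246 with ARV-825 and 2.89 ± 0.161 with OTX015, and the compounds differed by -0.74 (limma, adjusted p = 6.16e-05).

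Among regulators, TRIM16 fell from 17.7 ± 1.24 FPKM to 7.18 ± 0.267 with ARV-825 (log2 change -1.19) and 6.003 ± 0.535 with OTX015 (-1.42). The kinase BTK was called lower with both compounds, with log2 changes of -0.43 for ARV-825 and -0.71 for OTX015. NEK7, a kinase that NLRP3 needs to assemble, rose from 23.8 ± 1.77 to 38.0 ± 2.44 (0.65) and 37.4 ± 0.54 FPKM (0.63). Of 5 tested caspase and pyroptosis genes, 3 were called lower and 0 higher with ARV-825, and 3 lower and 1 higher with OTX015, with the same all-gene shares of 38.4% and 35.8%, and 33.5% and 36.1%. The one higher with OTX015 was NINJ1, which ruptures the membrane of dying cells, and that call was lost with no filter and without OTX015 replicate 1, OTX015 replicate 2 or control replicate 1. NINJ1 was at 14.5, 16.1 and 16.2 FPKM in control, 7.84, 9.17 and 9.38 FPKM with ARV-825, and 18.9, 19.6 and 16.8 FPKM with OTX015, and the compounds differed by -0.99 ± 0.081 (SE, limma, adjusted p = 6.06e-06). As a ratio of mean FPKM, NINJ1 was 2.10-fold and NLRP12 2.16-fold lower with ARV-825 than with OTX015.

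With RUNX1 shRNA 30 list genes were tested, of which 7 were called higher and 5 lower (median log2 change -0.0042), beside 13.5% higher and 13.8% lower of all 10925 tested genes. IL18RAP was the only one of them called with a change of at least 0.58 on the log2 scale. The count of genes called lower was 3 with no filter, with no mean-variance trend, without shNT replicate 2, without shNT replicate 3 and without RUNX1 shRNA replicate 3. Of 4 tested sensors, 3 were called higher, NLRP12 (0.41), MEFV (0.46) and CARD8 (0.27), and 1 lower, NAIP (-0.30), against the same shares of 13.5% and 13.8%. MEFV was at 0.696 to 0.968 FPKM in the shNT libraries and at 1.14 to 1.91 FPKM with RUNX1 shRNA. Its table mean thus reached the minimum of 1 FPKM only through the group in which it was higher. The 3 sensors and the 7 list genes called higher include this gene, whose entry into testing depended on its own rise. In the drug table MEFV was under the minimum for testing. It was at 1.61 ± 0.265 FPKM in control, 0.33 ± 0.0289 with ARV-825 and 0.971 ± 0.152 with OTX015 (SD, n = 3).

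**Figure D4:**
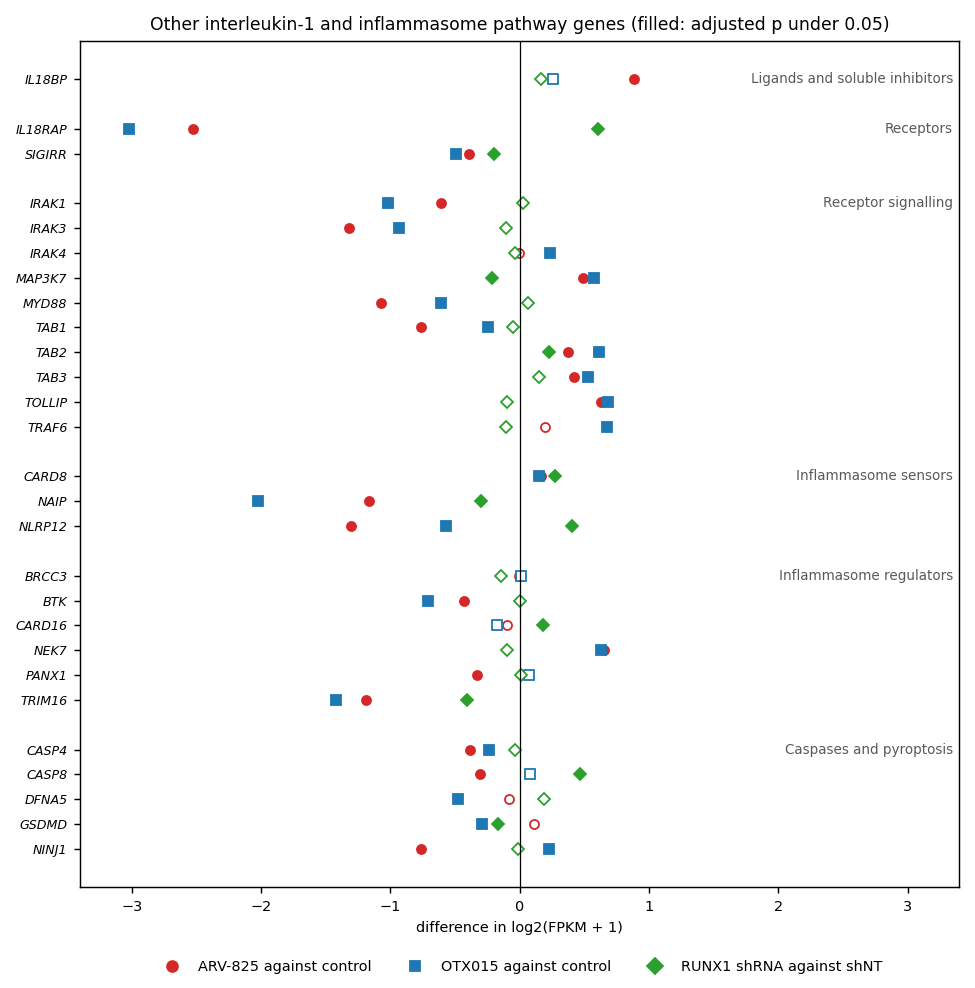
Difference in log2(FPKM + 1) of the 27 other pathway genes tested in the drug table, by role, for ARV-825 (circles), OTX015 (squares) and RUNX1 shRNA (diamonds) against their controls, filled where adjusted p was under 0.05. IL18RAP lies furthest left for both compounds and right of 0 for RUNX1 shRNA, and NINJ1 lies left of 0 for ARV-825 and right of 0 for OTX015.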

How the data were processed

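Total RNA was sequenced in 15 libraries, grouped by their treatment labels. The authors deposited 1 table of 9 drug libraries and 1 of 6 shRNA libraries. Values were read as FPKM, quantile normalized per table by the authors. That reading rests on the table names, on Cufflinks 2.0 in the submitters' processing notes, which also list TopHat2 2.0 and hg19, and on values that are not whole. The listed entries do not share 1 distribution across libraries. Library medians were 1.80 to 1.92 FPKM with ARV-825, 2.06 to 2.10 with OTX015 and 2.15 to 2.20 in control. The annotation and strand setting are not given in the sources used here, and depth is unknown, so no counting interval can be given.

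After leaving out 16 pseudoautosomal Y copies, each gene whose mean over a table reached 1 FPKM was tested as log2(FPKM + 1), a scale that understates changes of low genes. Limma 3.58.1 (lmFit, eBayes with trend, two-sided, R 4.3.3) was fitted to each table, with Benjamini-Hochberg adjustment over all tested genes and a threshold of 0.05. The method was tested on simulated data with independent noise. Far fewer genes were changed there than were called here, and by more than many of the changes reported here. The simulation therefore does not cover the small changes. Groups are called biologic triplicates with no batch named, so a p-value reflects only how far these libraries spread, which may be technical. Alternatives were another pseudocount (0.1 FPKM), no filter, a minimum of 5 FPKM, median-ratio rescaling, no trend, a replicate block, fits of 2 groups, and each library left out.

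Members and lists were chosen with earlier results of these data known. All members are named. Other list genes are named where they passed the threshold with a log2 change of at least 0.58 (1.5-fold), up to 12 per comparison. IL18R1, IL1R1, IL1A, CARD8 and MEFV were added after their values were seen. Likeness was the Euclidean distance over 3 log2 changes, with 3 genes named for the 2 members of largest change. Figures used matplotlib 3.10.9.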

Additional observations from a re-analysis of the deposited data

How the results depend on the processing

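The count of called members stayed within 1.5 times of its reported value in all 16 alternatives for ARV-825 (3 to 5) and for OTX015 (3 to 4) against control, and in all 12 for RUNX1 shRNA (1). Between ARV-825 and OTX015 it was 1 and became 2 with a pseudocount of 0.1 FPKM, no filter, median-ratio rescaling, the replicate block or the libraries of the 2 groups only, and 1 to 2 with single libraries left out. The additional gene was IL1B or, without the filter and after rescaling, NLRP3. No change named for a member was reversed where it had been called. IL1RN ranged from -3.29 to -3.10 with ARV-825 and from -3.20 to -2.96 with OTX015, and PYCARD was called in every alternative of every comparison. Replicate numbers in the titles gave no clear pairing of the drug libraries, where correlations of same-numbered deviations ran from -0.321 to 0.0613. Differently numbered drug libraries reached 0.409, for ARV-825 replicate 2 with OTX015 replicate 3. What these libraries share was not tested, and the fits did not model it. Among the drug libraries, 0 or 1 of 6 per pair of groups correlated best with their own number. Between shNT and RUNX1 shRNA 4 of 6 did, at same-numbered correlations of -0.00304 to 0.0612, which leaves pairing there undecided. With the replicate block 4, 4, 2 and 1 members were called for ARV-825, OTX015, their difference and RUNX1 shRNA, and IL1B passed with OTX015 (limma, adjusted p = 0.0297). Unknown depth limits NLRC4, IL1B and IL18 most, since their values were lowest.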
